A study of Mus musculus with 9 samples.

Results

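Mist1 (gene Bhlha15) and Xbp1, a pair of transcription factors of enzyme-secreting cells, were followed with 4 genes of the zymogen granule, Rab3d, Rab26, Vamp8 and Snap23, through 3 populations of mouse stomach cells. The members were all probe sets that the platform annotation pairs with exactly 1 of these genes. The rule gave 15 of the 45037 probe sets and 6 of 18193 genes: 2 probe sets for Bhlha15, 4 for Xbp1, 4 for Rab3d, 1 for Rab26, 1 for Vamp8 and 3 for Snap23. The rule itself reads no measured value.

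All 9 samples were total RNA from the stomach of C57BL/6 mice, hybridised singly to 9 Affymetrix arrays, 3 for each population. Chief samples were labelled as corpus cells positive for Mist1 and for Tomato, a red fluorescent reporter. The isthmus group carried that same label but was taken once the cells expressing Lgr5, a Wnt receptor by which stem cells are marked, were ablated. The parietal group was labelled as gastric parietal cells, the acid-secreting cells. The Mist1+ Tomato+ cells were collected by flow cytometry. The sources used here do not give what drives the Tomato reporter, the alleles and agent of the ablation, the age of the mice, how the parietal cells were collected, or whether replicates came from separate animals. A p-value here is thus read against the spread of these 9 samples alone, and that spread could be technical.

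Chief cells make pepsinogen and store it in zymogen granules that fuse with the apical membrane when the cell is stimulated. Mist1 is a basic helix-loop-helix factor that binds E-boxes as a dimer and drives the late maturation of secretory cells and the formation of large granules; Rab3d and Rab26 are known targets of it in the stomach. Xbp1 is activated when the endoplasmic reticulum sensor Ire1 splices its mRNA, and it raises chaperones, the translocon and protein degradation at the endoplasmic reticulum; it is also known to lie upstream of Mist1 in chief cells. Rab3d and Rab26 are small GTPases on secretory granules. Vamp8 is the SNARE protein on the granule, and Snap23 is a SNARE of the target membrane.

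RefSeq promoters of assembly GRCm38.p6, from 250 bases before to 50 bases after the gene start, were matched for 5 of the 6 genes, all but Rab26. Those of Bhlha15, Xbp1 and Rab3d are shown because the results turn on these 3 genes and because they differ in the E-boxes that factors such as Mist1 bind. The Bhlha15 stretch is chr5:144190036-144190335 on the plus strand, that of Xbp1 is chr11:5520391-5520690 on the plus strand, and that of Rab3d is chr9:21918134-21918433 on the minus strand. Each is written 5′ to 3′ along its gene's own strand, and capitals mark matches to CANNTG or to ACGTG.
Bhlha15: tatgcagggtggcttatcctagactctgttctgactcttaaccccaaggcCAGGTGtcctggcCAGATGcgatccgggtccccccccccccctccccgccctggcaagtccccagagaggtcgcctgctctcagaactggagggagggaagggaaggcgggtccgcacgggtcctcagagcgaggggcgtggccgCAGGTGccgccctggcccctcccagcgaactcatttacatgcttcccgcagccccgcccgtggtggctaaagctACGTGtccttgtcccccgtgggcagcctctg
Xbp1: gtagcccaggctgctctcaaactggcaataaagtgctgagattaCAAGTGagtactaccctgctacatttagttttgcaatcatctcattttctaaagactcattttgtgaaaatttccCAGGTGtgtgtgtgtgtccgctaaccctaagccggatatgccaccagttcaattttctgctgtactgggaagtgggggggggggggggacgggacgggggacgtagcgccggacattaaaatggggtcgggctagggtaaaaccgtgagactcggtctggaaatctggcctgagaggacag
Rab3d: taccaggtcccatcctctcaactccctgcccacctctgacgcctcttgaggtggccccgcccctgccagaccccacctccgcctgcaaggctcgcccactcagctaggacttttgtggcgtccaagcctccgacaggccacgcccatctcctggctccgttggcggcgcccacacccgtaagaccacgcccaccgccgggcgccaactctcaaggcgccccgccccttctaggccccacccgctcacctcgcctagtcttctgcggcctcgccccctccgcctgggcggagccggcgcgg

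The general E-box CANNTG was found 3 times in the Bhlha15 stretch and 2 times in that of Xbp1, at the capitals that begin with CA. The middle bases were GG in 3 of these 5 matches. It was found in neither the Rab3d, the Vamp8 nor the Snap23 stretch. CANNTG is present in 72.3% of 32851 promoters of this length. The form CATATG, which is contained in CANNTG, was in 0 of the 5 and in 3.91% of all. The core ACGTG, part of elements read by Xbp1, was in Bhlha15 and Vamp8 and in 19.6% of all promoters. The longer TGACGTGG, which contains ACGTG, was in 0 of the 5 and in 0.676% of all. The endoplasmic reticulum stress element ERSE was likewise in 0 of the 5 and in 0.119% of all. Both strands were searched, and a match or its lack describes only the letters in these windows. The shown Rab3d stretch had a GC content of 71%, against 66.7% for Bhlha15 and 51% for Xbp1.

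Values are log2 of the deposited MAS5 signal, so a difference of 1 is a doubling, and levels of different probe sets cannot be ranked against each other. The median of an array serves as a stand-in for background; it lay at 6.38 to 6.70 in the chief group, 5.92 to 6.32 in the isthmus group and 5.80 to 5.86 in the parietal group. Testing was limited to the 25662 probe sets that exceeded it on 3 or more arrays, which kept 14 of the 15 members. A call is an adjusted p under 0.05 from limma with Benjamini-Hochberg adjustment over these 25662. "At least" marks a fold in which a reading below its array median was replaced by that median. The chief arrays serve in both comparisons with chief, and the isthmus and parietal arrays are each used again, so the 3 comparisons are not independent. Centring each array on its median raises isthmus minus chief by 0.38 and parietal minus chief by 0.69 and lowers isthmus minus parietal by 0.32. The split of calls over all probe sets moves with it: from 57 higher and 248 lower to 190 and 54 in isthmus against chief, from 1948 and 2726 to 5230 and 1355 in parietal against chief, and from 2882 and 2318 to 1963 and 3334 in isthmus against parietal.

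The labelled cell types were checked on their markers. The summed signal of 6 chief cell genes, among them Pgc and Cblif, was 86207 to 120127 on chief arrays, 29232 to 38131 on isthmus arrays and 16742 to 26479 on parietal arrays. The summed signal of 8 parietal cell genes was 68067 to 80336 on parietal arrays, 19626 to 38537 on chief arrays and 14645 to 30250 on isthmus arrays. Genes of either type were thus read in all 3 groups, though not every one of them. Among the parietal genes Hdc lay below the array median on every parietal array, and Slc26a7 on every chief and isthmus array. The chief gene Pnliprp1 did so on every parietal array. In parietal against chief cells 7 of the 8 parietal genes were called higher and 1 lower, where 7.59% and 10.6% of all probe sets were. Lgr5, the gene that marks the ablated cells, read 8.05, 7.54 and 9.36 on chief arrays and 2.93, 4.83 and 5.97 on isthmus arrays. This was at least 4.48-fold lower and did not pass the test (limma, adjusted p = 0.113). Lgr5 was low on parietal arrays too, at an unlogged signal of 16 to 76.6 against 7.62 to 62.7 on isthmus arrays. It was called lower in parietal than in chief cells, with a log2 difference of -3.36. A low Lgr5 reading was thus not particular to the ablated group. Since these are bulk samples, fewer cells of a type and less RNA per cell cannot be told apart.

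**Figure D1:**
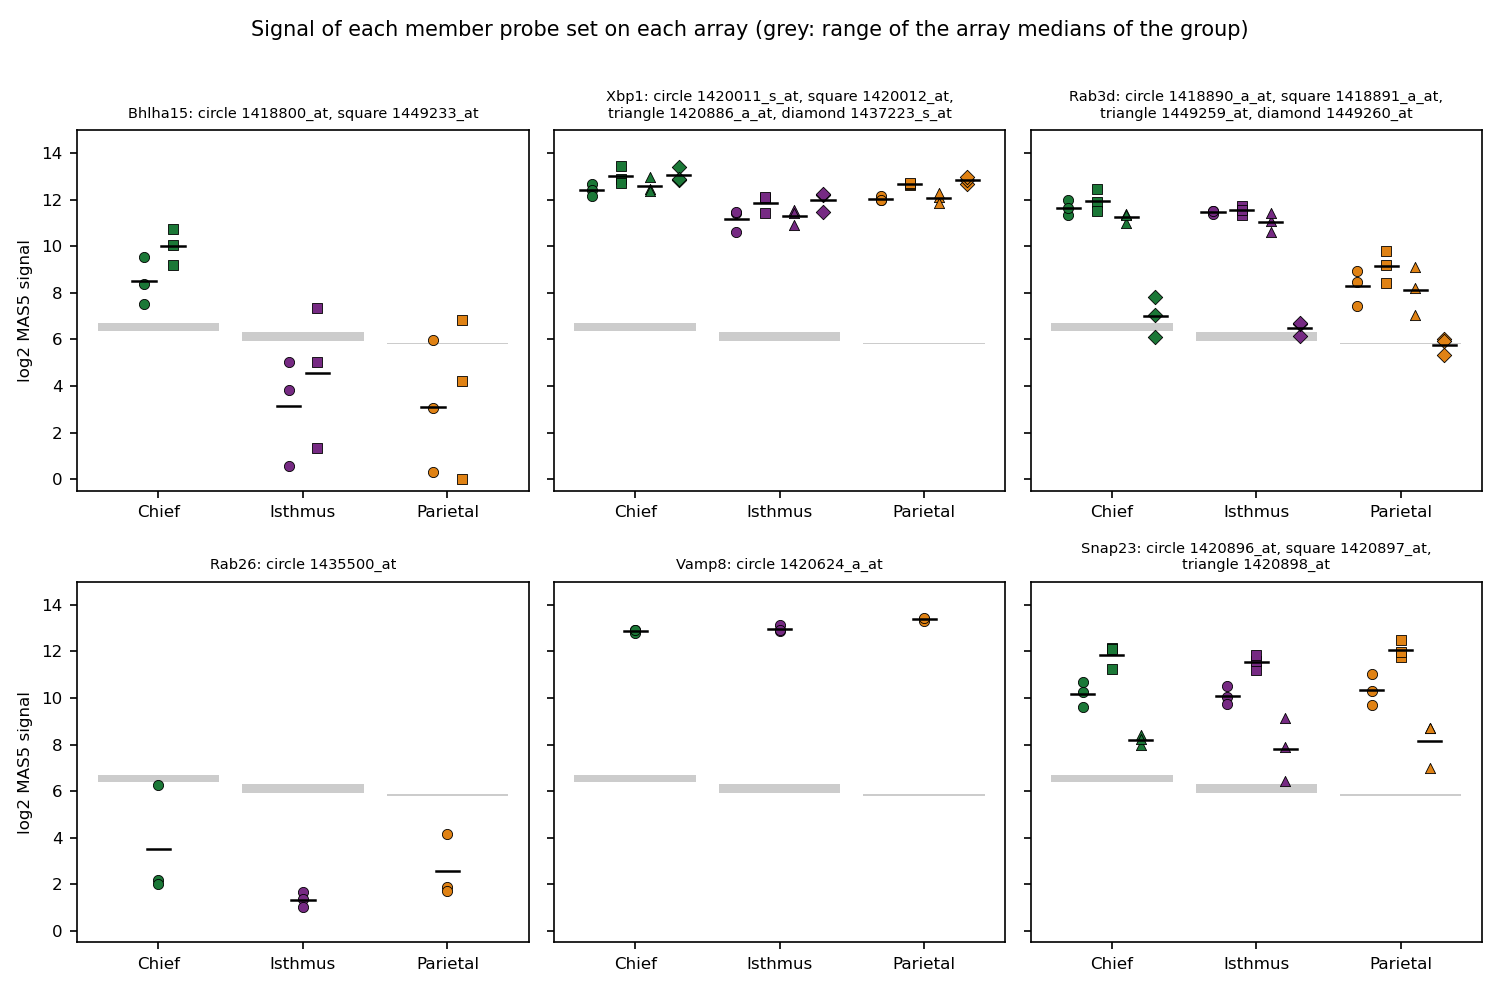
Log2 signal of each member probe set on each array, in 1 panel per gene, with the chief, isthmus and parietal groups on the horizontal axis; points are arrays, shaped by probe set, bars are group means (left out where an array is listed at 0) and grey bands are the range of the array medians in a group. Bhlha15 lies above the array medians on all 3 chief arrays, Rab3d drops in the parietal group, and Rab26 lies below the array median on all 9 arrays.

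Among the 14 tested members, isthmus cells had 4 called lower than chief cells and 0 called higher, and all 4 belonged to Xbp1. Over all probe sets 1.19% were called in this comparison, 0.966% lower and 0.222% higher. Parietal cells had 5 called lower than chief cells, from Bhlha15 and Rab3d, and 1 called higher, Vamp8, where 18.2% of all probe sets were called, 10.6% lower and 7.59% higher. Isthmus cells had 3 called higher than parietal cells, all of Rab3d, and 5 called lower, from Xbp1 and Vamp8, where 20.3% of all probe sets were called, 11.2% higher and 9.03% lower. Groups that did not overlap were more frequent than calls. Isthmus lay wholly below chief in 6 tested members and wholly above in 0, where 10.6% and 8.58% of all probe sets did so. Parietal lay wholly below chief in 8 and above in 1, against 20.2% and 15.3% of all. Isthmus lay wholly above parietal in 4 and below in 5, against 20.8% and 17.7% of all. The median member difference was -0.46, -0.45 and -0.29 in these 3 comparisons in turn, against -0.03, -0.17 and 0.10 over all probe sets tested.

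Bhlha15, at chromosome 5 from 144190286 to 144194441 in GRCm38.p6, was bright in the chief group and near or below background in the others. Probe set 1449233_at read 10.75, 10.05 and 9.20 on chief arrays, 5.03, 1.34 and 7.36 on isthmus arrays and 6.82, 4.21 and 0.00 on parietal arrays, the last being listed at 0. Probe set 1418800_at read 9.54, 8.39 and 7.54 on chief arrays, 0.56, 5.05 and 3.81 on isthmus arrays and 5.96, 0.32 and 3.06 on parietal arrays. Neither probe set overlapped between the chief group and the others. On all 3 chief arrays both lay above the array median, against 1 isthmus and 1 parietal array for 1449233_at and 0 isthmus and 1 parietal array for 1418800_at. The isthmus group, labelled Mist1+, thus had a Bhlha15 signal above its array median in 1 of 6 readings.

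In parietal against chief cells, Bhlha15 fell by 6.32 on the log2 scale for 1449233_at (95% interval -9.93 to -2.71) and by 5.38 for 1418800_at (-8.86 to -1.90). These are at least 14.3-fold and at least 6.13-fold lower (limma, adjusted p = 0.0189 and 0.0343). Both calls depend on single arrays. For 1449233_at the adjusted p is 0.0672 without Chief replicate 1, 0.0556 without Chief replicate 2 and 0.0659 without Parietal replicate 3. For 1418800_at it is 0.121, 0.0861 and 0.0609 without Chief replicates 1, 2 and 3 in turn, 0.112 without Parietal replicate 2 and 0.0791 without Parietal replicate 3. The call for 1418800_at is also lost with the replicate number as a block (adjusted p = 0.0544), under quantile normalization (0.0518) and with no intensity trend (0.0644). With no trend the lower member calls that remain are all of Rab3d, so that for 1449233_at is lost as well. In isthmus against chief cells the differences were nearly as large, -5.42 and -5.35, or at least 11.3-fold and at least 5.05-fold lower, but with intervals of -9.03 to -1.81 and -8.83 to -1.87 they did not pass (adjusted p = 0.141 and 0.132). With 16 added to the signal before taking logs, the adjusted p was 0.0304 and 0.0321, and with values floored at the array median it was 0.0126 and 0.0273. Both settings draw readings below background together and so narrow the spread they are tested against. These p-values are therefore not separate support for a difference. Isthmus and parietal cells differed by 0.90 and 0.03, with adjusted p = 0.764 and 0.993, and no fold is given because both groups lay mostly below background.

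Xbp1, at chromosome 11 from 5520641 to 5525993, was bright on every array and lowest in the isthmus group. Probe set 1420886_a_at read 12.96, 12.47 and 12.39 on chief arrays, 11.58, 11.45 and 10.91 on isthmus arrays and 12.11, 12.28 and 11.87 on parietal arrays. Probe set 1420011_s_at read 12.67, 12.42 and 12.15 on chief arrays, then 11.45, 11.48 and 10.62, then 11.99, 12.15 and 12.00. In both, every isthmus array lay below every chief and every parietal array. Probe set 1420012_at read 13.46, 12.91 and 12.73 on chief arrays, 12.06, 12.14 and 11.45 on isthmus arrays and 12.64, 12.66 and 12.71 on parietal arrays. Probe set 1437223_s_at read 13.39, 12.87 and 12.89, then 12.21, 12.25 and 11.46, then 12.67, 12.87 and 12.98. The isthmus group again had no overlap with either other group, and Isthmus replicate 3 was the lowest of the 9 arrays in all 4 probe sets. The 4 probe sets followed each other closely over the 9 arrays, with pairwise Pearson r between 0.94 and 0.98, as a description over arrays that share their groups. Spliced and unspliced Xbp1 mRNA were not told apart here.

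In isthmus against chief cells, Xbp1 was 2.45-fold lower for 1420886_a_at (log2 difference -1.29 ± 0.22 SE, 95% interval -1.77 to -0.82, limma adjusted p = 0.0193). It was 2.22-fold lower for 1420012_at, 2.35-fold lower for 1420011_s_at and 2.11-fold lower for 1437223_s_at, with adjusted p = 0.0263, 0.0313 and 0.0353. The 4 probe sets measure 1 gene and are not separate evidence. All 4 calls are lost when arrays are centred on their medians, where the differences are -0.92 to -0.70 (adjusted p = 0.113 to 0.187), and without Chief replicate 1, where they are -1.12 to -0.91 (adjusted p = 0.103 to 0.143). Without Isthmus replicate 1 the probe set 1420886_a_at alone is called, with adjusted p-values of 0.0354 to 0.0682 over the 4. Without any other single array at least 2 of the 4 calls remain, with adjusted p up to 0.0609.

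In isthmus against parietal cells Xbp1 was lower as well, by 1.71-fold for 1420886_a_at to 1.82-fold for 1437223_s_at (adjusted p = 0.0247 and 0.0117, limma). Without Isthmus replicate 3 the differences shrink to -0.61 to -0.57, and 1 of the 4 is called, with adjusted p between 0.0365 and 0.0924. Without Parietal replicate 3, 2 of the 4 are called (0.0335 to 0.0584): 1420886_a_at and, at an adjusted p that rounds to 0.05, 1437223_s_at. Without Parietal replicate 2, 2 of the 4 are called as well (0.0385 to 0.096). No Xbp1 probe set passed in parietal against chief cells: the differences were -0.52 to -0.21, with adjusted p = 0.125 to 0.55, and centring the arrays turns them to 0.17 to 0.48. The order of the Xbp1 means was chief, parietal, isthmus in all 4 probe sets, with the chief and parietal means not distinguished by the test.

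Markers of other cell types were set beside these values, since plasma cells are also rich in Xbp1 and Mist1. The summed signal of 7 plasma cell genes was 5354 to 6458 on chief, 4786 to 5229 on isthmus and 2916 to 3919 on parietal arrays. Of these genes Mzb1, Tnfrsf17 and Cd79a lay below the array median on every array, while Jchain read 10.20, 8.87 and 0.38 on chief arrays. Jchain and Prdm1 lay below the array median on every isthmus and parietal array but not on every chief array. The summed signal of 5 fibroblast genes was 150 to 25737 on chief arrays against 61.4 to 149 on isthmus arrays, and that of 3 red cell genes was 3904 to 22555 against 3174 to 3342. Only 2 genes of each of these 3 lists were tested. In isthmus against chief cells 0 of them were called, where 1.19% of all probe sets were. The medians of the tested genes were 0.86 for plasma cell, -4.32 for fibroblast and -4.02 for red cell genes. With values floored at the array median they were 0.20, -2.67 and -2.59. Of 5 genes of pit cells, the mucous cells of the gastric surface, 4 were called lower in isthmus and 5 in parietal than in chief cells. Over all probe sets 0.966% and 10.6% were called lower in these comparisons. In isthmus against parietal cells 3 of the 5 were called higher and 0 lower, where 11.2% and 9.03% of all probe sets were. The summed signal of the 5 pit cell genes was 104122 to 129199 on chief, 67444 to 80509 on isthmus and 52241 to 59062 on parietal arrays. Xbp1 was called lower in isthmus than in parietal cells and was not called in parietal against chief cells. Of the 6 chief cell genes summed above, 4 were called lower in isthmus than in chief cells and 0 higher. Their median difference was -2.86, and 0.966% of all probe sets were called lower there. The part of any of these cells in the Bhlha15 and Xbp1 differences was not tested.

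Rab3d, at chromosome 9 from 21907491 to 21918199, had the same range in chief and isthmus cells and was far lower in parietal cells. Probe set 1418890_a_at read 11.98, 11.35 and 11.63 on chief arrays, 11.52, 11.39 and 11.50 on isthmus arrays and 7.44, 8.45 and 8.96 on parietal arrays. Probe set 1418891_a_at read 12.45, 11.92 and 11.53, then 11.75, 11.33 and 11.57, then 9.19, 9.80 and 8.42. Probe set 1449259_at read 11.40, 11.02 and 11.35, then 10.63, 11.11 and 11.44, then 8.21, 7.06 and 9.12. In all 3 the chief and isthmus arrays interleave and the parietal arrays lie apart below them. The remaining probe set, 1449260_at, was dim at 7.83, 6.10 and 7.07 on chief arrays, 6.15, 6.65 and 6.71 on isthmus arrays and 6.02, 5.94 and 5.34 on parietal arrays, and it was above the array median on 7 of 9 arrays.

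Rab3d in parietal cells was 10.3-fold below chief cells for 1418890_a_at (log2 difference -3.37 ± 0.36 SE, 95% interval -4.15 to -2.59, limma adjusted p = 5.04e-05). It was 7.11-fold lower for 1418891_a_at and 8.73-fold lower for 1449259_at (adjusted p = 0.000131 and 0.000426). In isthmus against parietal cells the same probe sets were 9.11-fold, 5.33-fold and 7.62-fold higher (adjusted p = 6.96e-05, 0.000356 and 0.000559). These 6 calls held under every alternative run, with adjusted p up to 0.00968 against chief and 0.0108 against isthmus. The dim 1449260_at was at least 2.08-fold lower in parietal than in chief cells and did not pass (adjusted p = 0.31). Between isthmus and chief cells the 3 brighter probe sets differed by -0.18, -0.42 and -0.20, with intervals of -0.96 to 0.60, -1.17 to 0.33 and -1.16 to 0.77 (adjusted p = 0.856, 0.619 and 0.877).

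Genes of several other cell types moved with Rab3d in the parietal group. The summed signal of Ghrl, Sst, Gast, Chga and Chgb was 36730 to 75016 on chief arrays, 18661 to 41633 on isthmus arrays and 389 to 653 on parietal arrays. In parietal against chief cells 4 of these 5 were called lower, as were 5 of 5 pit cell genes, 2 of 2 neck cell genes and 2 of 2 proliferation genes. All 6 chief cell genes were called lower as well, with a median difference of -5.46. Over all probe sets 10.6% were called lower there. The neck cell sum was 13081 to 28111 on chief, 11047 to 13116 on isthmus and 2747 to 7042 on parietal arrays, and the proliferation sum was 5359 to 9169, 8532 to 10995 and 303 to 339. The part of these cells in the Rab3d difference was not tested.

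Rab26, at chromosome 17 from 24529054 to 24533747, is measured by 1435500_at alone. It read 6.27, 2.19 and 2.02 on chief arrays, 1.65, 1.36 and 1.0 on isthmus arrays and 1.87, 1.71 and 4.17 on parietal arrays. Every value lay below its array median, so the gene was not tested and no fold is given. In the fit with no filter, over 45037 probe sets, its differences were -2.16 in isthmus and -0.91 in parietal against chief cells (adjusted p = 0.515 and 0.736, limma). A level of Rab26 was therefore not detectable above this background in any group.

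Vamp8, at chromosome 6 from 72385221 to 72390667, was bright and even. Probe set 1420624_a_at read 12.90, 12.80 and 12.92 on chief arrays, 13.13, 12.87 and 12.90 on isthmus arrays and 13.41, 13.32 and 13.44 on parietal arrays. Every parietal array lay above all 6 others. Parietal cells were 1.43-fold above chief cells (log2 difference 0.52 ± 0.11 SE, 95% interval 0.27 to 0.76, limma adjusted p = 0.00706). Isthmus cells were 1.34-fold below parietal cells (adjusted p = 0.0191). The first call is lost with no intensity trend and without Chief replicate 3 and Parietal replicate 1 together. The second is lost under quantile normalization (difference -0.20, adjusted p = 0.256), with no trend (0.255) and without the same pair (0.0735). The second is also lost without any of 4 single arrays. Its adjusted p is 0.0545 without Isthmus replicate 3, 0.0631 without Parietal replicate 1, 0.0747 without Parietal replicate 3 and 0.0755 without Isthmus replicate 2. Isthmus and chief cells differed by 0.09 (interval -0.15 to 0.34, adjusted p = 0.751).

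Snap23, at chromosome 2 from 120567655 to 120601255, passed in 0 of 3 comparisons for its 3 probe sets. Probe set 1420897_at read 11.23, 12.15 and 12.10 on chief arrays, 11.21, 11.60 and 11.85 on isthmus arrays and 11.77, 12.48 and 11.97 on parietal arrays. Probe set 1420896_at read 10.69, 9.61 and 10.25, then 10.52, 10.05 and 9.73, then 11.04, 9.71 and 10.31. Probe set 1420898_at read 7.96, 8.42 and 8.25, then 9.12, 6.43 and 7.89, then 8.70, 7.0 and 8.72. The groups overlap in all of them. The 3 probe sets did not follow each other over the 9 arrays, with pairwise Pearson r from -0.61 to 0.46. For 1420897_at the intervals were -0.87 to 0.32 in isthmus and -0.35 to 0.84 in parietal against chief cells, with adjusted p = 0.69 and 0.593. When arrays are centred on their medians it is called in parietal cells, at 0.94 above chief cells (adjusted p = 0.015) and with isthmus cells 0.84 below them (log2 difference -0.84, adjusted p = 0.0326).

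**Figure D2:**
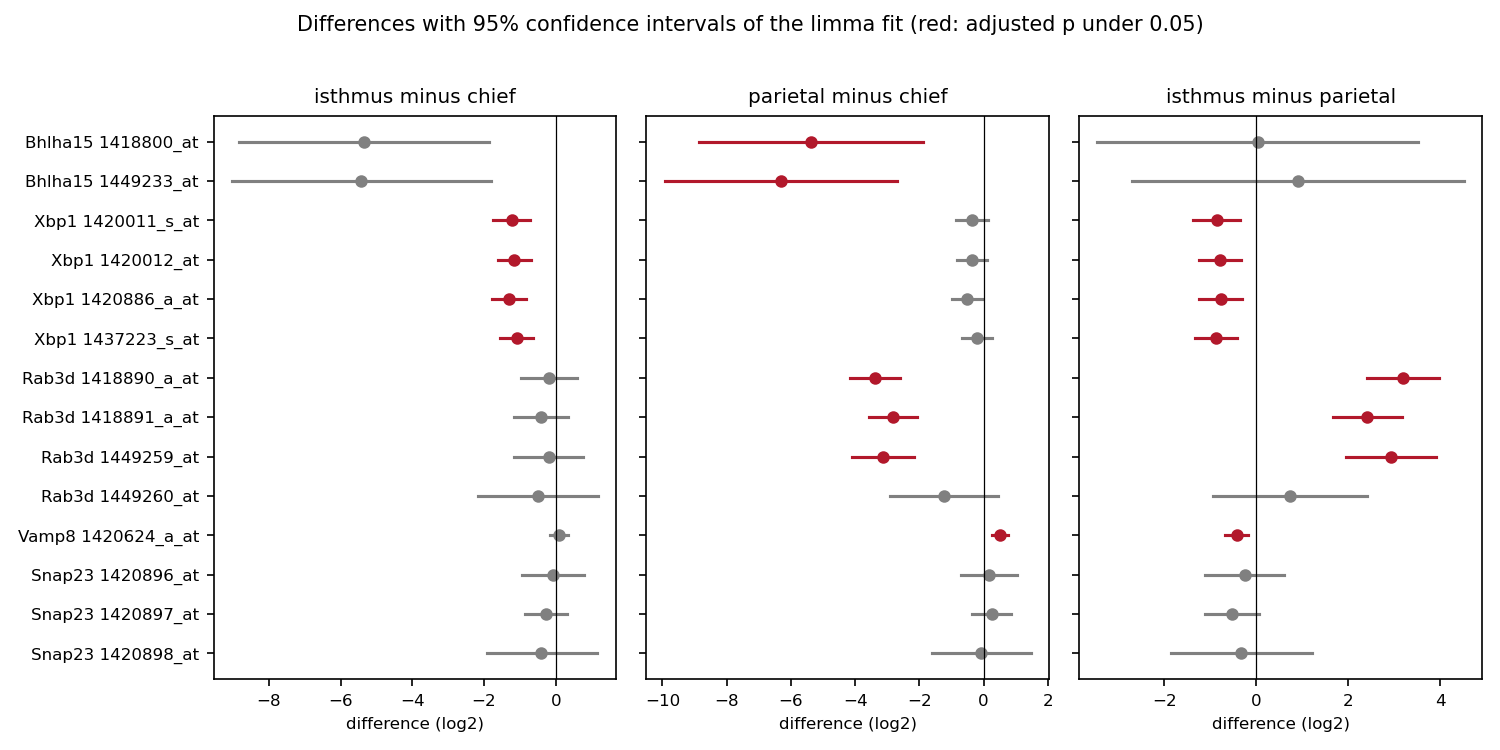
Log2 difference of each member probe set in the 3 comparisons, with its 95% interval from limma, for the 14 tested; red marks an adjusted p under 0.05 and grey the rest, and each panel has its own horizontal scale. The 4 Xbp1 probe sets lie together between -1.29 and -1.08 in isthmus against chief cells, and the 3 brighter Rab3d probe sets lie between -3.37 and -2.83 in parietal against chief cells.

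Differences between members on the same array do not depend on the array's scale factor. Their size carries each probe set's own response, so only their change between groups is read. The mean of the 4 Xbp1 probe sets minus that of the 3 brighter Rab3d probe sets was 1.18, 1.24 and 1.04 on chief arrays and 0.53, 0.55 and -0.39 on isthmus arrays. It was 4.07, 4.05 and 3.56 on parietal arrays. The 3 groups do not overlap. From chief to isthmus the difference changed by -0.92, with Xbp1 at -1.19 and Rab3d at -0.27, and from chief to parietal by 2.74, with Xbp1 at -0.36 and Rab3d at -3.11. Xbp1 minus Vamp8 was 0.22, -0.13 and -0.38 on chief arrays and -1.31, -1.04 and -1.79 on isthmus arrays. Floored Bhlha15 minus Rab3d changed by -2.65 from chief to isthmus. In the two-sided exact permutation test of 3 arrays against 3, each of these 4 had p = 0.1, the smallest the design allows, and Xbp1 minus Snap23, which changed by -0.94, had p = 0.2. Adjusted over the 5 computed, p was 0.125 for the first 4 and 0.2 for the last. Since no outcome could go below 0.1, these p-values do not decide whether the differences changed.

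Genes around the Ire1 and Xbp1 branch of the unfolded protein response were described from a list of 17, all of them tested. In isthmus against chief cells 0 passed higher and 2 lower, with a median difference of -0.65 over the list against -0.03 over all probe sets. Of all probe sets 0.222% passed higher and 0.966% lower. Derl3, which takes part in degradation of misfolded proteins, read 10.57, 9.33 and 9.10 on chief arrays and 2.97, 4.85 and 2.47 on isthmus arrays. It was at least 11.4-fold lower (limma, adjusted p = 0.00718), although the call is lost without Chief replicate 1 (0.075). Hyou1, an endoplasmic reticulum chaperone, was 2.58-fold lower (adjusted p = 0.0499), a call that is kept in 1 of the 9 fits that leave out an array and is 0.0562 with the replicate block. Dnajb9, an Xbp1 target that encodes a cochaperone, had a difference of -1.12 and an adjusted p of 0.0503.

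Parietal cells had 1 of the 17 passing higher than in chief cells and 6 passing lower, with a median of -0.38. Over all probe sets 7.59% passed higher and 10.6% lower, with a median of -0.17. Ern2, the Ire1 form of secretory epithelia, was at least 14.8-fold lower, with 9.74, 10.16 and 10.61 on chief arrays and 5.52, 6.84 and 6.16 on parietal arrays (limma, adjusted p = 8.57e-05). Sdf2l1, part of a chaperone complex, was 8.17-fold lower and the disulfide isomerase Pdia6 5.04-fold lower (adjusted p = 0.00053 and 0.000745). Eif2ak3, the sensor kinase Perk of another branch, was 5.41-fold higher (adjusted p = 0.000747). In isthmus against parietal cells 3 passed higher and 3 lower, and with 1 array left out 2 to 4 and 1 to 4. Over all probe sets 11.2% passed higher and 9.03% lower there. Ern2 was at least 17.6-fold higher and Pdia6 3.32-fold higher (adjusted p = 5.23e-05 and 0.00445), whereas Dnajb9 was 2.40-fold lower (adjusted p = 0.00322). Eif2ak3 was 3.02-fold lower in isthmus cells (adjusted p = 0.00964), a call lost without Parietal replicate 3 (0.0534).

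Other genes of regulated exocytosis came from a list of 30, of which 28 had a probe set naming them alone and 23 were tested. Between isthmus and chief cells 0 of the 23 passed in either direction, with a median difference of 0.12. Over all probe sets 1.19% passed there, with a median of -0.03. At that share a count of 0 does not set the list apart. The brightest, Rab27b and Rab11a, both GTPases of vesicle traffic, differed by 0.20 and 0.18 (limma, adjusted p = 0.617 and 0.66). In parietal against chief cells 3 passed higher and 3 lower, with a median of -0.12. Over all probe sets 7.59% passed higher and 10.6% lower, with a median of -0.17. The higher count of the list ranged from 1 to 9 over all alternatives and from 2 to 4 with 1 array left out. Sytl2, an effector of Rab27, was at least 18.2-fold lower and the SNARE Snap25, a relative of Snap23, at least 12.7-fold lower (adjusted p = 0.000131 and 0.0024). Sytl4, also called granuphilin, was 3.89-fold higher and Rph3al, a Rab effector, 5.29-fold higher (adjusted p = 0.00544 and 0.0145). The Rph3al call is lost with no intensity trend (0.0837) and without Chief replicate 3 and Parietal replicate 1 together (0.0813). In isthmus against parietal cells 5 passed higher and 3 lower, and with 1 array left out 3 to 5 and 1 to 4. Over all probe sets 11.2% passed higher and 9.03% lower there. Calls for Vamp3, Snap29, Sytl4 and Unc13d were kept in 6, 5, 4 and 4 of the 9 fits that leave out an array, whereas those for Rab27a, Sytl2, Snap25 and Rph3al were kept in all 9. Rab27a was 7.41-fold higher and Sytl2 at least 25.9-fold higher in isthmus cells, and Rph3al was 16-fold lower (adjusted p = 0.000489, 5.56e-05 and 0.000507).

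**Figure D3:**
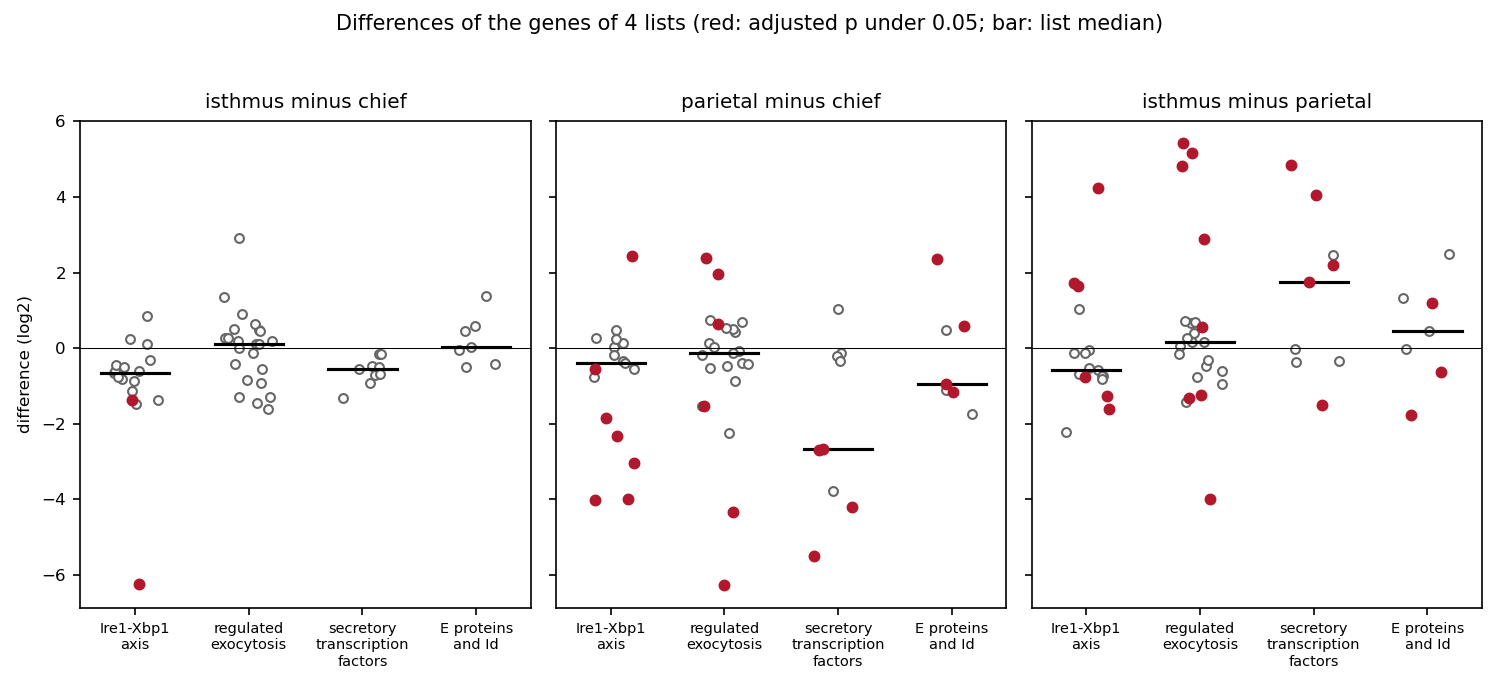
Log2 differences of the tested genes of 4 lists in the 3 comparisons, 1 point per gene, with red points past an adjusted p under 0.05, open points for the rest and a bar at the list median. The genes of the Ire1 and Xbp1 list lie mostly below 0 in isthmus against chief cells, with a median of -0.65 and 2 of 17 called.

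The genes whose values most resembled those of a member over the 9 arrays were ranked by Pearson r among 21393 probe sets with values floored at the array median, as a description of arrays that share their groups. For Bhlha15 these were Hapln4 (r = 0.982), Derl3 and Nfix (both 0.978), Fes (0.977) and Zscan22 (0.976). Derl3 is the gene of the Ire1 and Xbp1 list with the largest isthmus difference. Fes, a tyrosine kinase, read 10.69, 10.10 and 8.99 on chief arrays and between 3.87 and 5.80 on the other 6. For Xbp1 they were Tmem64 (0.970), Reep5 (0.950), Ro60 (0.949), Necap1 (0.948) and Kcmf1 (0.946), each with its lowest mean in the isthmus group. Tmem64 had group means of 11.55 in chief, 7.42 in isthmus and 10.50 in parietal cells. For Rab3d they were Ghrl (0.979), the ghrelin gene of endocrine cells, and Ankrd17 (0.977). For Vamp8 they were Gcsh (0.991) and Septin6 (0.986), and for Snap23 Wasl (0.941) and Fam160b2 (0.923).

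**Figure D4:**
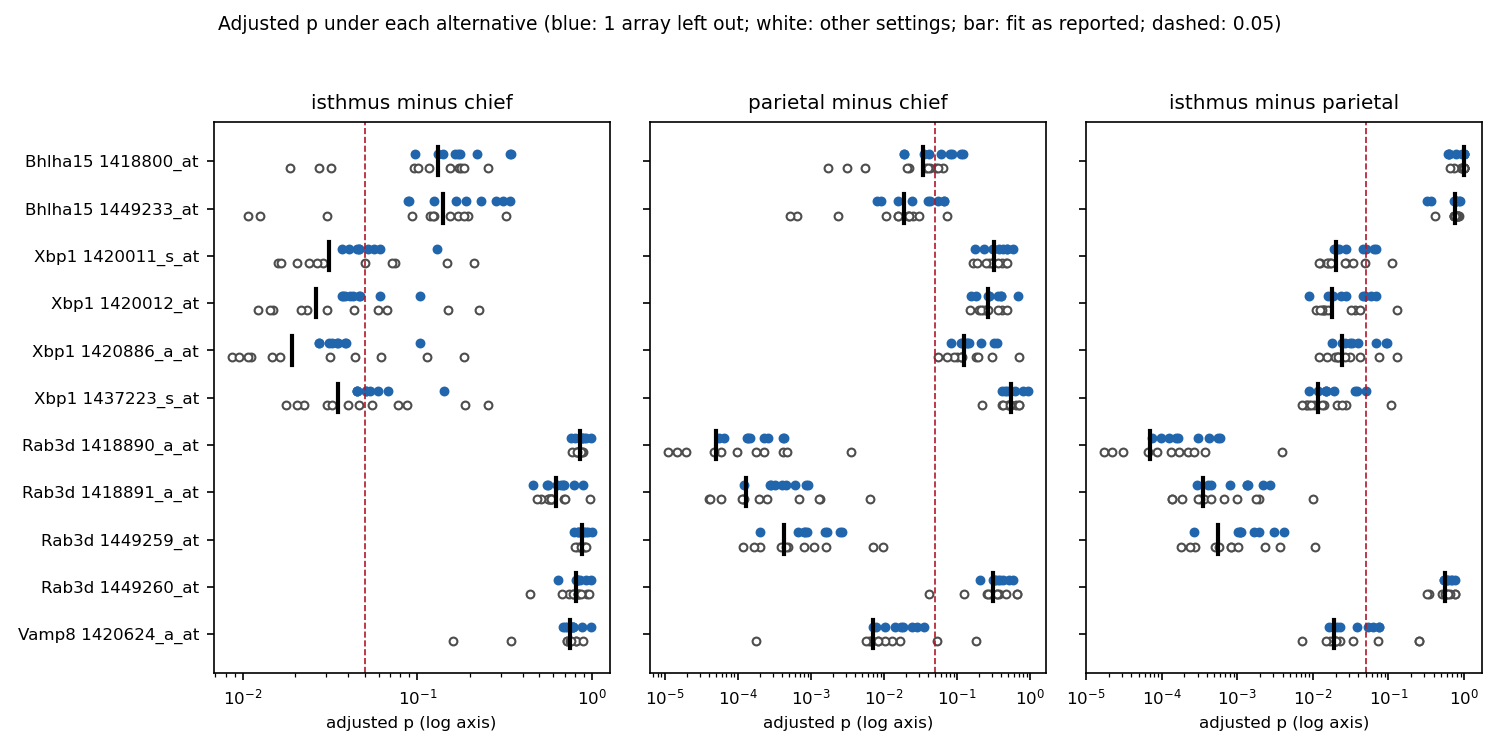
Adjusted p on a log axis for the members of Bhlha15, Xbp1, Rab3d and Vamp8 under each alternative setting, in 1 panel per comparison; blue points leave out 1 array, open points are the other settings, bars are the fit as reported and the dashed line is at 0.05. The 3 brighter Rab3d probe sets lie left of the line under all settings in both comparisons with parietal cells, whereas the Xbp1 probe sets lie on both sides of it in isthmus against chief cells.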

How the data were processed

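Total RNA of 9 samples was measured on Affymetrix mouse arrays. The authors deposited 1 log2 signal per probe set and array, made with MAS5 per the submitters' processing notes; the sources used here give neither its version nor the step to the log scale. Base 2 was inferred because it makes every array's 2% trimmed mean 496 to 497. Exact zeros made up 1.99% to 3.91% of the values per array. Gene names came from the platform annotation, in which 34945 of 45037 name 1 gene, with symbols looked up in RefSeq.

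Groups came from the sample titles. One limma 3.58.1 fit in R 4.3.3 (lmFit, contrasts.fit, eBayes with an intensity trend) held all 9 arrays with a mean per group and 6 residual degrees of freedom. Tests were two-sided with Benjamini-Hochberg adjustment, and the fit was tested on simulated data. Adjusted p-values are from this fit unless an alternative or the exact permutation test is named beside them. The number of arrays limits the precision. No 2 arrays were alike: the smallest median absolute difference was 0.74. The members, lists and tests were chosen with earlier results of these data known. Beside all members, the genes named are, for each list, up to 4 called genes with the smallest adjusted p or, with none called, the 2 brightest, and the genes most like a member. Lgr5, Dnajb9 in isthmus against chief cells and single markers were named after their values were seen. In all 21 alternatives were run.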

Additional observations from a re-analysis of the deposited data

How the results depend on the processing

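Over 21 alternatives the number of member probe sets called lower in isthmus than in chief cells, 4 of 14, fell to 0 with arrays centred on their medians, with no intensity trend and without Chief replicate 3 and Parietal replicate 1 together. It was 2 with no filter, 1 with one probe set per gene, 1 with only the 2 groups compared and 6 with 16 or 64 added to the signal or values floored, and it ranged from 0 to 4 with each array left out in turn; 0 were called higher throughout. In parietal against chief cells the 5 lower calls became 2 with one probe set per gene and 3 with no trend, and 3 to 5 with an array left out. The 1 higher call became 2 when centred and 0 with no trend or without the pair of arrays. In isthmus against parietal cells the 5 lower calls became 2 with one probe set per gene, 0 with no trend and 3 without the pair, and 1 to 5 with an array left out, and the 3 higher calls became 1 with one probe set per gene and otherwise stayed 3.

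Over all probe sets, the 305 calls in isthmus against chief cells became 517 with 64 added, 471 floored, 203 after quantile normalization, 150 with no filter, 182 with one probe set per gene (of 11006 genes), 145 with only 2 groups, 32 with no trend, 41 without the pair and 33 to 371 with an array left out. The 4674 in parietal against chief cells became 2664 with one probe set per gene, 3063 with no trend, 2642 without the pair and 3269 to 4590 with an array left out. The 5200 in isthmus against parietal cells became 3030 with one probe set per gene and 3757 to 5542 with an array left out. Centring turned the parietal minus chief difference of Vamp3 to 0.57 (adjusted p = 0.0436) and that of Dnajb11 to 0.14 (adjusted p = 0.647). Apart from the shifts that centring adds and the fewer features or arrays of some settings, the cause was not tested.

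Same-numbered arrays of different groups did not deviate together (r = -0.013 to 0.04), so the numbers were not taken as pairs. With the replicate number as a block, 4 members were called lower in isthmus than in chief cells, 4 lower and 1 higher in parietal than in chief cells, and 5 lower and 3 higher in isthmus than in parietal cells. Signal near background limits Bhlha15 and Rab26, where values below the array median carry little order.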

Other observations

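Other transcription factors of secretory cells stood apart in the parietal group. Of a list of 11, 9 were tested: 0 passed in isthmus against chief cells (median -0.54), 4 passed lower in parietal than in chief cells (median -2.66, or -1.85 floored), and 4 passed higher and 1 lower in isthmus than in parietal cells. Over all probe sets 1.19% passed in isthmus against chief cells, and 10.6% passed lower in parietal than in chief cells. In isthmus against parietal cells 11.2% passed higher and 9.03% lower. Klf4, a factor of gastric surface and gland epithelium, was 18.4-fold lower in parietal than in chief cells, with 13.06, 13.41 and 13.49 on chief arrays and 9.89, 9.08 and 8.39 on parietal arrays (limma, adjusted p = 2.42e-06). Spdef, a factor of mucous secretory cells, was at least 17.5-fold lower (adjusted p = 0.000225) and Creb3l1, of the endoplasmic reticulum, 6.33-fold lower (adjusted p = 0.000912). Between isthmus and chief cells the brightest, Klf4 and Atf4, differed by -0.15 and -0.16 (adjusted p = 0.86 and 0.724).

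E proteins, which bind E-boxes as dimers with other helix-loop-helix factors, and Id proteins, which block such dimers, were a list of 7, all tested. Between isthmus and chief cells 0 passed, with a median of 0.04, where 1.19% of all probe sets passed. Against chief cells, parietal cells had 2 passing higher and 2 lower, where 7.59% and 10.6% of all probe sets did so. With 1 array left out the counts of the list became 1 higher in every fit and 0 to 3 lower: the Id3 call (adjusted p = 0.0499) is lost in all 9 such fits and the Id1 call (0.0424) is kept in 3. Id2 read 10.07, 10.61 and 10.81 on chief arrays and 12.95, 12.76 and 12.87 on parietal arrays, 5.15-fold higher (limma, adjusted p = 2.7e-05). In isthmus against parietal cells 1 passed higher and 2 lower, or 0 to 2 and 1 to 2 with 1 array left out, with Id2 3.40-fold lower (adjusted p = 0.000185). Over all probe sets 11.2% passed higher and 9.03% lower there. Tcf12, an E protein, had a parietal minus chief difference of -0.95 (adjusted p = 0.0183), and the call is lost without Chief replicate 2 (0.0671), without Parietal replicate 1 (0.0745) and when arrays are centred (0.56).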
